A study of Homo sapiens with 24 samples.

Results

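The genes described here are the MYC, MAX and MXD network: MYC, MYCL, MAX, MXD1, MXD3, MXD4, MXI1, MNT, MGA and PVT1. They were chosen by name, as 10 of the 61533 genes in the exon count table, and all 10 passed the filter on low counts. Transcription was followed by 4sU-seq, in which 4-thiouridine (200 µM for the last hour) labels RNA while it is transcribed, so that the labelled RNA can be purified and sequenced. The cells were U2OS, a human osteosarcoma line with low endogenous glucocorticoid receptor (GR), grown in medium with charcoal-stripped serum. 3 lines stably expressed GR-HaloTag from an integrated construct under a CMV promoter: wild type (wt), the K492A mutant with reduced RNA binding (SoF), and the R470A mutant with reduced DNA binding (Ctrl). The paper states that K492A also has a smaller loss of DNA affinity. R470A served as its control, with lowered DNA affinity and the RNA affinity of wt. The ligand was the synthetic glucocorticoid dexamethasone at 100 nM, given for 1, 2 or 3 h. Cells in 0.01% ethanol stand for 0 h, and each of the 12 groups has 2 libraries. Each line was 1 puromycin-selected pool sorted for its HaloTag signal, so the construct and the pool cannot be told apart. The length of the ethanol treatment is not stated, so dexamethasone and time since the change of medium cannot be told apart in changes against 0 h. Dexamethasone was given with the new medium, so they also run together in the steps between 1, 2 and 3 h and cannot be told apart there. No source says whether the 2 libraries of a group came from separate cultures. The p-values therefore measure the spread between these libraries, which may be technical. The paper states that biotinylation and pulldown were run on pairs of replicates. Variation between pulldowns may thus be missing from that spread and may coincide with group. In bulk RNA, fewer expressing cells and less RNA per cell cannot be told apart.

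MYC is a basic helix-loop-helix leucine zipper transcription factor that binds DNA only as a dimer with MAX, most often at the E-box CACGTG, and drives genes of ribosome production, nucleotide synthesis and growth. MAX also dimerises with MXD1, MXD3, MXD4, MXI1 and MNT, which recruit SIN3 corepressors to the same E-boxes, and with MGA, a large repressor of the non-canonical PRC1.6 complex. MYC RNA and protein are short-lived, and MYC is a classic early target of growth factor signals. MYCL is a MYC paralog, and PVT1 is a long noncoding RNA gene next to MYC whose promoter is known to compete with that of MYC for shared enhancers.

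Total counts lay between 8106036 and 15820806 a library. MYC itself had 4736 to 17636 counts a library, PVT1 2150 to 3952 and MGA 1635 to 2807, whereas MYCL had 13 to 140, so MYCL is the least precisely measured. CPM is used below for a count divided by its library's TMM-adjusted total, times 1000000. The labelled cell type was checked on 7 osteoblast markers, of which 5 passed the filter: COL1A1 had 249.5 to 1008 CPM and RUNX2 51.5 to 158 CPM, while BGLAP had at most 1.32 CPM, and SP7 and IBSP stayed at or under 0.172 CPM. Of 8 markers of blood, epithelium, endothelium, liver and glia, 5 were tested, and the highest was CDH1, at most 8.09 CPM. CDH1 fell at 3 h on the mean of the lines (-2.08, SE 0.25, edgeR adjusted p = 1.02e-06), as did PTPRC (-0.89, SE 0.32, edgeR adjusted p = 0.0327), and their part in the changes below was not tested. The introduced receptor gene NR3C1, whose endogenous and introduced copies are counted together, exceeded its wt level 3.70-fold in SoF and 4.55-fold in Ctrl over all times. On the mean of the lines NR3C1 rose at 1 h (log2 change 1.07, SE 0.12, edgeR adjusted p = 1.24e-05) and was lower than at 0 h by 3 h (-1.06, SE 0.12, edgeR adjusted p = 4.25e-07), and its part in the time changes below was not tested. These are values of newly made RNA and not of protein. The paper chose sorted fractions so that nuclear GR protein matched between lines by immunofluorescence. It reports that this protein stayed relatively constant over 3 h of dexamethasone. The 0 h libraries of replicate 1 and replicate 2 stood apart from each other in every line, which touches several genes below. For network genes called at 2 h or 3 h on the mean of the lines, changes against 0 h are therefore also given with each replicate number left out. For other genes, among them NR3C1, the immediate-early genes and the lists around MYC, such values are not given. The p-values of the mean of the lines treat the 6 libraries at 0 h as independent, although their deviations correlated by replicate number across the lines (0.394 to 0.568).

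In hg38, MYCL is on chromosome 1, MXD1 on chromosome 2, MXD4 on chromosome 4, MXD3 on chromosome 5, MXI1 on chromosome 10, MAX on chromosome 14, MGA on chromosome 15 and MNT on chromosome 17. The count table is described as stranded, but the counting setting itself is given only by the table's title, so shared exons are treated as uncertain. MXD3 shares 19.5% of its exon bases with RAB24 on the same strand (110.0 counts on average) and 24.2% with PRELID1 on the opposite strand (649.2 counts). MAX shares 13.1% with FNTB (434.1 counts) and 10.0% with CHURC1-FNTB (307.0 counts), both on the opposite strand, and these were not separated from it. MNT shares 12.2% with a noncoding gene on the opposite strand that averaged 1.6 counts. MYC shares 3.2% with CASC11 on the opposite strand, which averaged 10.5 counts.

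RefSeq promoter windows (GRCh38.p14), running from 250 bases before to 50 after a gene start, were matched for 8 of the 10 genes, 13 windows in all. The E-box CACGTG, which reads the same on both strands, was in the window of MNT, 193 bases before the start, and of MXD4, 238 bases before the start, and in no other window of these 8 genes. It is in 7.26% of all 35116 promoter windows. AGAACA, a letter run of the GR element searched on both strands, was found in 1 window of MXI1, 182 bases before the start, and is in 14.8% of all windows. These are matches of letters, not measured binding. The 250 bases before the start are shown for MNT and MXD4, the pair of MAX partners that carry the network's own binding motif and whose RNA rose with dexamethasone time; the E-box is in capitals, read 5′ to 3′ along the gene's strand.
MNT (chr17:2401061-2401310, minus strand): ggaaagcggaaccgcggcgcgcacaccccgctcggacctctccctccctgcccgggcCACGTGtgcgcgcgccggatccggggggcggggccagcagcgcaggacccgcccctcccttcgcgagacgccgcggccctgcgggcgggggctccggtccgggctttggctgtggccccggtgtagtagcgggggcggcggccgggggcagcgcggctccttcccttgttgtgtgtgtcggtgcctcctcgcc
MXD4 (chr4:2262110-2262359, minus strand): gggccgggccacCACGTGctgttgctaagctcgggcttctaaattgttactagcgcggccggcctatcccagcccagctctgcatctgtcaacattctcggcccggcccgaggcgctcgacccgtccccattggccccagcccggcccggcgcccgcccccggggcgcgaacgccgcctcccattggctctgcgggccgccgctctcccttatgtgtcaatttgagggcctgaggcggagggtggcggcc

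Of the 10 genes, 6 changed at 3 h on the mean of the 3 lines: MYC and PVT1 fell, and MAX, MNT, MXD3 and MXD4 rose. At this time 40.3% of the 23651 genes tested were called, so a count of 6 of 10 does not by itself set the network apart. At 2 h, 7 of 10 were called (MYC, MYCL and PVT1 fell, and the same 4 partners rose) against 28.8% of all genes. The genes called higher and lower made up 20.9% and 19.3% of all genes at 3 h, and 16.2% and 12.6% at 2 h. At 1 h none of the 10 passed in edgeR's quasi-likelihood test, while 2 of 10 had an unadjusted p under 0.05 and DESeq2 called 1, against 1.28% of all genes called. Every change against 0 h shares the 6 libraries at 0 h. Between 1 h and 2 h, a step that uses no 0 h library, MYC and PVT1 fell and MAX, MNT, MXD3 and MXD4 rose, 6 of 10 against 44.9% of all genes. Between 2 h and 3 h, MYC and MNT fell, 2 of 10 against 10.0%. The median log2 change of the 10 genes at 3 h was 0.07, beside -0.03 over all genes tested.

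**Figure D1:**
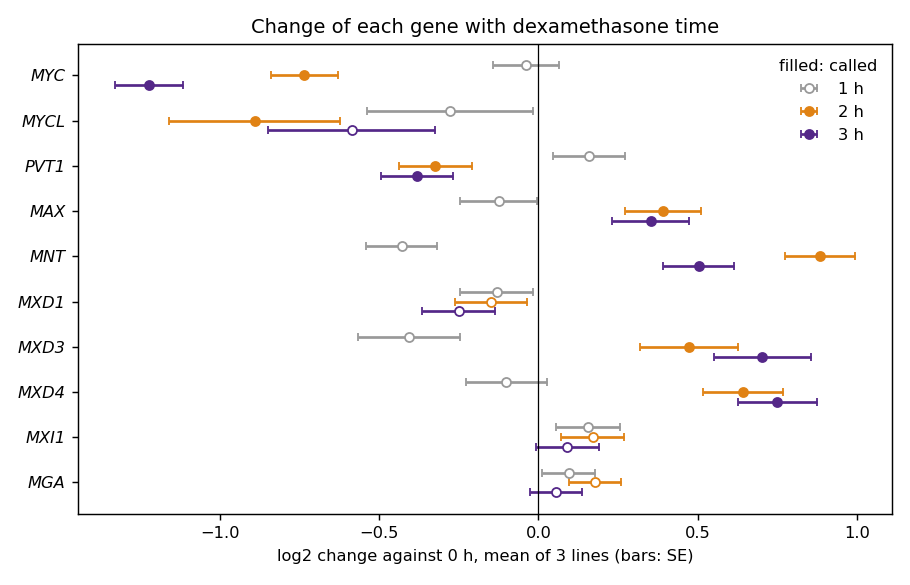
Log2 change (x axis) of each of the 10 genes (rows) at 1, 2 and 3 h of dexamethasone against 0 h, as the mean of the 3 lines, with the SE as bars; filled points have an adjusted p under 0.05. At 3 h MYC lies at -1.22 and PVT1 at -0.38, MXD4, MXD3, MNT and MAX lie between 0.35 and 0.75, and no point at 1 h is filled.

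MYC (ENSG00000136997) lies on chromosome 8 from 127735434 to 127742951 on the plus strand (hg38), and PVT1 (ENSG00000249859) starts 51574 bases beyond its end, from 127794526 to 128187101 on the same strand. MYC fell by more than any other gene of the network at 3 h. In wt it had 1023 and 1138 CPM at 0 h, 888 and 1132 CPM at 1 h, 800.3 and 634 CPM at 2 h, and 485 and 487 CPM at 3 h. In SoF it had 1137 and 962 CPM at 0 h, 975 and 1033 CPM at 1 h, 636 and 571 CPM at 2 h, and 382 and 429 CPM at 3 h. In Ctrl it had 1259.6 and 1055 CPM at 0 h, 1151 and 1234 CPM at 1 h, 527 and 791 CPM at 2 h, and 479.9 and 571 CPM at 3 h. All 6 libraries at 2 h and all 6 at 3 h lay below every library at 0 h and 1 h, while those at 0 h and 1 h overlapped. Of all genes, 0.127%, 2.95% and 6.76% lay wholly below 0 h in this way at 1, 2 and 3 h. The share wholly below 1 h was not computed. On the mean of the lines the log2 change was -0.04 (SE 0.10) at 1 h, -0.73 (SE 0.11, edgeR adjusted p = 1.90e-05) at 2 h and -1.22 (SE 0.11, edgeR adjusted p = 9.76e-09) at 3 h, a 2.33-fold lower level. Per line, the log2 change at 3 h was -1.15 (SE 0.18) in wt, -1.37 (SE 0.18) in SoF and -1.14 (SE 0.18) in Ctrl, each called (edgeR adjusted p between 2.28e-05 and 0.000285). None of these 3 calls was lost when any 1 library was left out. At 2 h the call held in SoF (-0.80) and Ctrl (-0.81), and the value in wt was -0.59 (SE 0.18, edgeR adjusted p = 0.0647). The SoF call at 2 h was lost without SoF replicate 1 at 0 h or either SoF library at 2 h, and the Ctrl call without Ctrl replicate 1 at 2 h (-0.54). Without the 0 h libraries of replicate 1 the mean change at 3 h was -1.16, and without those of replicate 2 it was -1.27, both called.

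The genes whose CPM ran most like that of MYC over the 24 libraries, among 13792 genes with at least 5 CPM on average, were TUFT1 (Pearson r = 0.962), BCL10 (0.962), CCN1 (0.961), IER2 (0.958) and EGR1 (0.957). These libraries differ mostly by time and share their 0 h groups, so the correlations are descriptions. IER2 and EGR1 are immediate-early genes, a class that growth factors and serum switch on within minutes. All 8 immediate-early genes examined (EGR1, EGR2, FOS, FOSB, JUNB, IER2, ATF3 and KLF10) fell at 3 h, with log2 changes from -5.42 to -0.48, and 6 of 8 fell at 2 h, when KLF10 rose. EGR1 went from a median of 4938 CPM at 0 h to 4618 at 1 h, 735 at 2 h and 180.02 at 3 h, and ATF3 from 371 to 30.1 CPM between 0 h and 3 h. The part of these genes in the MYC result was not tested. Within the network, PVT1 had r = 0.45 with MYC, ranking 2922, MXD1 had 0.31, and MXD4 (-0.78), MNT (-0.67), MXD3 (-0.67) and MAX (-0.58) ran opposite to it.

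PVT1 fell by a smaller log2 value than MYC, and its 0 h libraries in wt lay below those of SoF and Ctrl. In wt it had 214 and 200.4 CPM at 0 h and 189 and 174 CPM at 3 h. In SoF it had 278 and 396 CPM at 0 h and 226 and 211 CPM at 3 h, and in Ctrl 257 and 389.9 CPM at 0 h and 287 and 229 CPM at 3 h. The 3 h libraries lay below the 0 h libraries in wt and SoF and overlapped them in Ctrl, at 2 libraries against 2. How many of all genes separate in this way within a line was not computed. At 1 h PVT1 ranged from 238 to 401 CPM over the lines, and at 2 h from 173 to 299 CPM. Its 1 h change on the mean of the lines was not called. That change was 0.34 without the 0 h libraries of replicate 2 and -0.0113 without those of replicate 1. The mean log2 change was -0.32 (SE 0.11, edgeR adjusted p = 0.0363) at 2 h and -0.38 (SE 0.11, edgeR adjusted p = 0.0104) at 3 h. Between 1 h and 2 h it was -0.48 (SE 0.11, edgeR adjusted p = 0.00172). With single libraries left out, the 2 h call was lost in 7 of 12 cases (either wt library at 0 h, replicate 1 of wt or SoF at 2 h, SoF or Ctrl replicate 2 at 0 h, and Ctrl replicate 2 at 2 h; range -0.42 to -0.22), and the 3 h call without SoF or Ctrl replicate 2 at 0 h (range -0.46 to -0.27). The calls against 0 h rested on the 0 h libraries of replicate 2: without them the change was -0.14 at 2 h and -0.19 at 3 h, neither called, and without those of replicate 1 it was -0.49 and -0.53, both called. In single lines PVT1 was called at 3 h in SoF alone (-0.63, SE 0.20, edgeR adjusted p = 0.0288), a call lost without 3 of the 4 libraries involved, namely SoF replicate 2 at 0 h (-0.35) or either SoF library at 3 h.

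**Figure D2:**
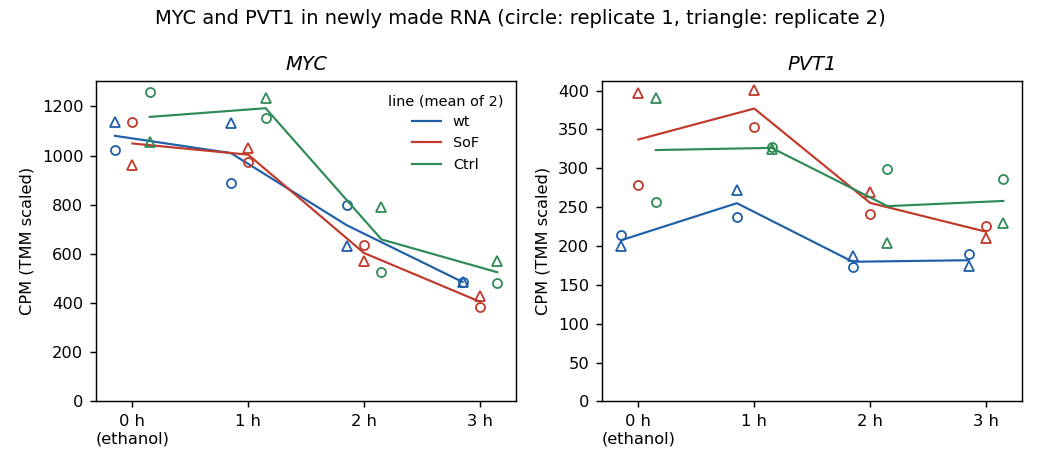
CPM (y axis, from 0) of MYC and PVT1 by dexamethasone time (x axis) in the wt, SoF and Ctrl lines; each point is a library and lines join the means of 2. MYC lies between 962 and 1259.6 CPM at 0 h and between 382 and 571 CPM at 3 h in all lines, while PVT1 in wt lies below SoF and Ctrl at 0 h and 1 h.

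MYCL was near its counting limits. It had a median of 4.93 CPM (3.17 to 10.8) at 0 h, 3.54 (2.63 to 7.36) at 1 h, 2.44 (1.37 to 4.56) at 2 h and 3.28 (2.66 to 4.61) at 3 h, with 6 libraries a time, so the times overlapped when the lines were pooled. Within lines, MYCL lay below 0 h at 2 h in wt, SoF and Ctrl, and at 3 h in wt and Ctrl. These set 2 libraries against 2, and the share of all genes separated in this way was not computed. The mean log2 change was -0.89 (SE 0.27, edgeR adjusted p = 0.0160) at 2 h and -0.59 (SE 0.26, edgeR adjusted p = 0.0787) at 3 h. The 2 h call was lost without wt replicate 2 at 0 h (the highest library, at 10.8 CPM), without SoF replicate 1 at 2 h or without Ctrl replicate 1 at 2 h. Without all 0 h libraries of replicate 2 the 2 h change was -0.64 and not called, and the 3 h change was -0.32. Without those of replicate 1 the 2 h and 3 h changes were -1.09 and -0.77.

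MAX, the partner that MYC needs to bind DNA, rose at 2 h and 3 h. In wt it had 51.6 and 44.8 CPM at 0 h and 67.0 and 66.0 CPM at 3 h. In SoF it had 47.3 and 51.0 CPM at 0 h and 57.7 and 64.6 CPM at 3 h, and in Ctrl 54.1 and 51.0 CPM at 0 h and 62.7 and 64.7 CPM at 3 h. All 6 libraries at 2 h (58.9 to 74.0 CPM) and all 6 at 3 h lay above all 6 at 0 h, as did 5.62% and 9.89% of all genes (0.465% at 1 h). At 1 h the range was wide, from 32.2 CPM in wt replicate 1 to 61.2 CPM in wt replicate 2. The mean log2 change was 0.39 (SE 0.12, edgeR adjusted p = 0.0174) at 2 h and 0.35 (SE 0.12, edgeR adjusted p = 0.0227) at 3 h, and in no single line was MAX called. Without the 0 h libraries of replicate 1 the mean changes at 2 h and 3 h were 0.41 and 0.39. Without the 0 h libraries of replicate 2 the values were 0.36 and 0.33 and were no longer called, as was also so at 3 h without wt replicate 2 at 0 h or SoF replicate 2 at 3 h (range 0.33 to 0.39), and at 2 h without wt replicate 2 at 0 h or 2 h or Ctrl replicate 2 at 2 h (range 0.34 to 0.43).

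MNT, the most widely expressed repressive partner of MAX, rose to its highest level at 2 h and was lower again at 3 h. In wt it had 64.9 and 50.8 CPM at 0 h, 41.2 and 35.6 at 1 h, 84.7 and 96.9 at 2 h, and 73.3 and 90.3 at 3 h. In SoF it had 59.2 and 45.4 CPM at 0 h, 39.03 and 35.7 at 1 h, 102 and 96.9 at 2 h, and 73.9 and 79.9 at 3 h. In Ctrl it had 67.9 and 40.7 CPM at 0 h, 49.9 and 44.8 at 1 h, 122 and 109 at 2 h, and 69.3 and 80.7 at 3 h. Every library at 2 h and 3 h lay above every library at 0 h and 1 h. Of all genes, 5.62% and 9.89% lay wholly above 0 h at 2 h and 3 h. The share wholly above 1 h was not computed. From 1 h to 2 h MNT rose 2.49-fold, by a log2 change of 1.31 (SE 0.11, edgeR adjusted p = 1.58e-08), the largest step of any gene in the network between neighbouring times on the mean of the lines, and from 2 h to 3 h it fell by -0.38 (SE 0.11, edgeR adjusted p = 0.0263). That fall lost its call in 8 of 12 cases of leaving out 1 library (wt replicate 2, SoF replicate 1 or either Ctrl library at 2 h, and replicate 1 of any line or SoF replicate 2 at 3 h), with values from -0.43 to -0.33. Against 0 h the log2 change was 0.88 (SE 0.11, edgeR adjusted p = 3.46e-06) at 2 h and 0.50 (SE 0.11, edgeR adjusted p = 0.000945) at 3 h. At 1 h it was -0.43 (SE 0.11, edgeR adjusted p = 0.0624), which passed the threshold in DESeq2, with RLE factors, without the low-count filter and with a replicate block. In all 3 lines the 0 h library of replicate 1 had more MNT than that of replicate 2. Without the 0 h libraries of replicate 1 the changes at 1, 2 and 3 h were -0.17, 1.15 and 0.78, and without those of replicate 2 they were -0.65, 0.66 and 0.29, with the 2 h and 3 h values called both ways and the 1 h value only in the second.

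MXD4, a MAX partner linked to resting and differentiating cells, rose at 2 h and 3 h. In wt it had 23.3 and 17.9 CPM at 0 h and 25.2 and 35.9 CPM at 3 h. In SoF it had 20.7 and 19.3 CPM at 0 h and 35.0 and 32.6 CPM at 3 h, and in Ctrl 15.5 and 12.1 CPM at 0 h and 23.9 and 29.3 CPM at 3 h. All 6 libraries at 3 h lay above all 6 at 0 h and at 1 h (14.5 to 19.8 CPM), and at 2 h 1 library, Ctrl replicate 1 with 19.6 CPM, fell among those of 0 h. At 3 h 9.89% of all genes lay wholly above 0 h, and the share wholly above 1 h was not computed. The mean log2 change was 0.64 (SE 0.12, edgeR adjusted p = 0.000501) at 2 h and 0.75 (SE 0.12, edgeR adjusted p = 5.11e-05) at 3 h. It was called at 3 h in SoF (0.75) and Ctrl (0.93), while the value in wt was 0.57 (SE 0.21, edgeR adjusted p = 0.0921). The SoF call was lost without 3 of the 4 libraries and the Ctrl call without replicate 2 at 0 h or at 3 h, whereas the mean over the lines was called without any 1 library (0.66 to 0.83) and without either set of 0 h libraries (0.91 and 0.63).

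MXD3, known for its peak in dividing cells, rose at 2 h and 3 h too. At 0 h it had 25.4 and 17.5 CPM in wt, 16.9 and 11.4 in SoF, and 11.8 and 10.0 in Ctrl. At 3 h it had 24.7 and 31.2 CPM in wt, 21.8 and 24.8 in SoF, and 19.7 and 24.8 in Ctrl. With 2 libraries against 2, the groups did not overlap in SoF and Ctrl and did overlap in wt. The share of all genes that separate in this way within a line was not computed. The mean log2 change was -0.41 (SE 0.16) at 1 h, 0.47 (SE 0.15, edgeR adjusted p = 0.0238) at 2 h and 0.70 (SE 0.15, edgeR adjusted p = 0.000866) at 3 h. The 1 h value was -0.61 without the 0 h libraries of replicate 2 and -0.18 without those of replicate 1. The 2 h value was 0.27 and not called without the 0 h libraries of replicate 2, and it was lost without replicate 2 of any line at 0 h, replicate 1 of wt or SoF at 2 h, or Ctrl replicate 2 at 2 h (6 of 12 libraries, range 0.37 to 0.58). The 3 h change stayed called without the replicate 1 libraries at 0 h (0.95) and without those of replicate 2 (0.51). Ctrl was the single line with a call at 3 h (1.02, SE 0.27, edgeR adjusted p = 0.0145), which was lost without Ctrl replicate 2 at 0 h or at 3 h. The neighbours that share exons with MXD3 were not separated from it.

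The remaining MAX partners gave no call with time. MXD1, the founding member of the MXD family, had a median of 20.7 CPM (14.7 to 25.4) at 0 h and 17.2 CPM (14.7 to 17.9) at 3 h, a log2 change of -0.25 (SE 0.11, edgeR adjusted p = 0.0860). MXI1, also called MXD2, had 23.7 CPM (21.4 to 29.9) at 0 h and 26.6 CPM (21.1 to 32.4) at 3 h, a log2 change of 0.09 (SE 0.10, edgeR adjusted p = 0.492). MGA had 167 CPM (153 to 197) at 0 h and 178 CPM (151 to 206) at 3 h, a log2 change of 0.05 (SE 0.08, edgeR adjusted p = 0.627). For these 3 genes the libraries of the times overlapped when the lines were pooled. Within lines, MXD1 at 3 h lay below 0 h in SoF (17.9 and 17.5 CPM against 24.2 and 22.3 CPM) and in Ctrl (17.3 and 17.02 CPM against 25.4 and 19.1 CPM). MGA at 2 h lay above 0 h in wt and Ctrl, and at 1 h in wt. MXI1 lay above 0 h at 1 h in SoF and at 2 h in Ctrl. These separations within lines set 2 libraries against 2, and the share of all genes separated in this way was not computed. They are descriptions and not evidence of a change.

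**Figure D3:**
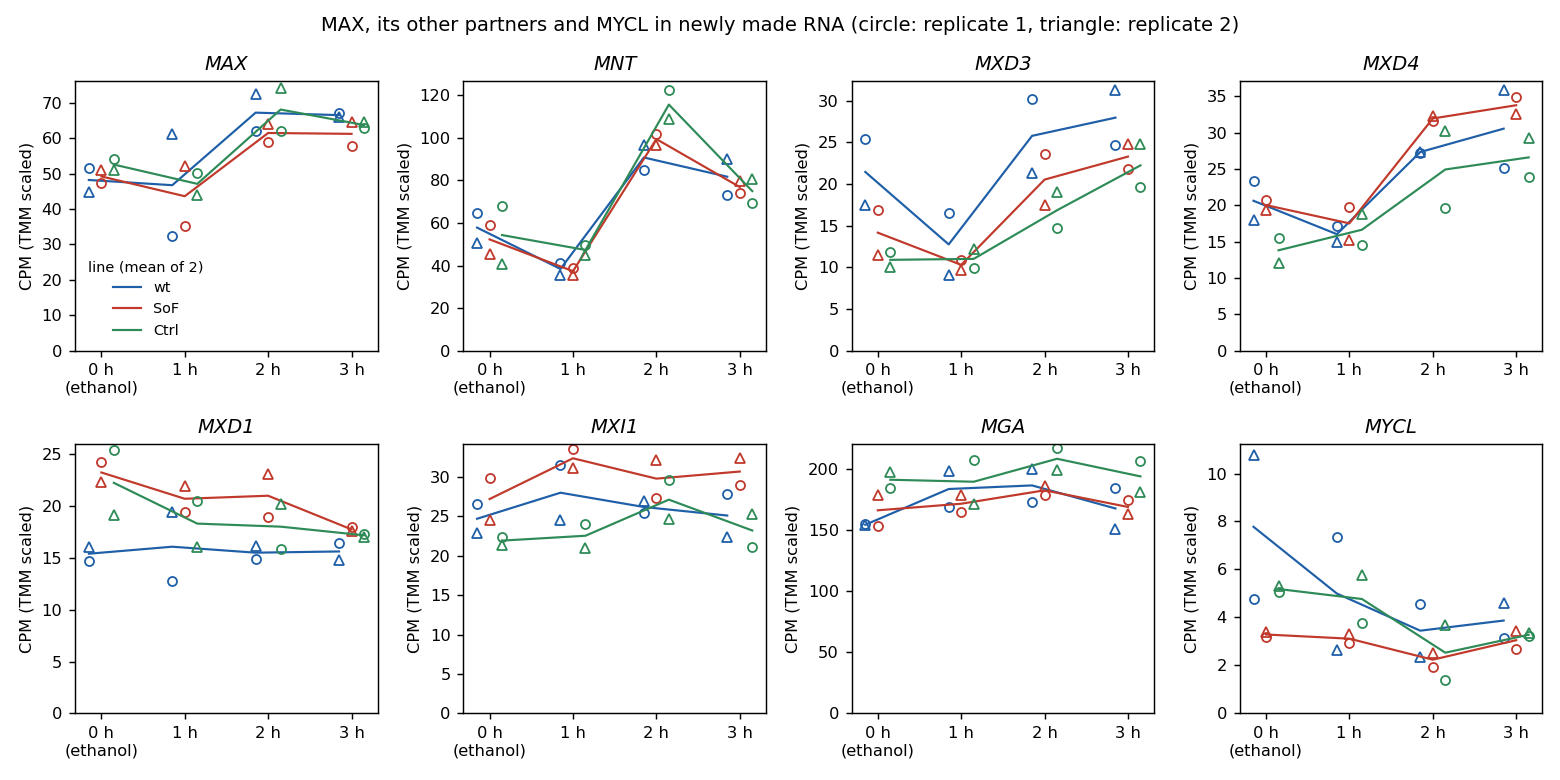
CPM (y axes, from 0) of MAX, its partners other than MYC, and MYCL by dexamethasone time (x axes) in the wt, SoF and Ctrl lines; each point is a library and lines join the means of 2. MNT peaks at 2 h with 84.7 to 122 CPM, MXD4 lies between 23.9 and 35.9 CPM at 3 h against 12.1 to 23.3 CPM at 0 h, and MXI1 and MGA overlap across times.

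Levels of different genes were compared as CPM per kb of merged exon. This length joins all annotated exons of a gene: 25431 bases for PVT1, 20074 for MGA and 6109 for MYC. It can exceed the length of the transcripts made, so the order of genes and the size of ratios depend on the annotation. Without the division, the 0 h medians were 1096 CPM for MYC, 267 for PVT1 and 167 for MGA. At 0 h MYC stood far above the rest, with a median of 179 CPM per kb (157 to 206, 6 libraries), followed by PVT1 (10.5, 7.88 to 15.6), MGA (8.30, 7.63 to 9.83), MAX (8.15, 7.16 to 8.64), MNT (6.32, 4.68 to 7.81), MXI1 (4.01), MXD1 (3.25), MXD3 (3.02), MXD4 (2.71) and MYCL (0.992). From PVT1 down to MYCL (0.638 to 2.17) each gene's range overlapped that of its neighbour in this order. At 3 h MYC was still highest at 79.0 CPM per kb (62.6 to 93.5), now followed by MAX (10.3), MGA (8.86), MNT (8.84) and PVT1 (8.58), whose ranges overlap. The ratio of MYC to MNT within a library, per length, had a median of 28.8 (22.4 to 36.9) at 0 h, 37.4 (30.7 to 45.3) at 1 h, 9.10 (6.13 to 13.5) at 2 h and 8.56 (7.37 to 10.1) at 3 h. The ratio of MYC to MXD4 went from 66.6 (49.3 to 97.9) at 0 h to 18.5 (12.3 to 22.6) at 3 h, and that of MYC to MAX from 22.5 (19.3 to 26.0) to 7.49 (6.78 to 9.05). None of the 3 ratios at 2 h or 3 h overlapped its 0 h values. For MYC to MNT and MYC to MAX this follows from the single genes. At both times MYC lay wholly below 0 h, and MNT and MAX lay wholly above it. At 3 h it follows for MYC to MXD4 too. These separations are thus not a separate result. The share of other gene pairs that separate in this way was not computed. These ratios concern newly made RNA and not protein.

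**Figure D4:**
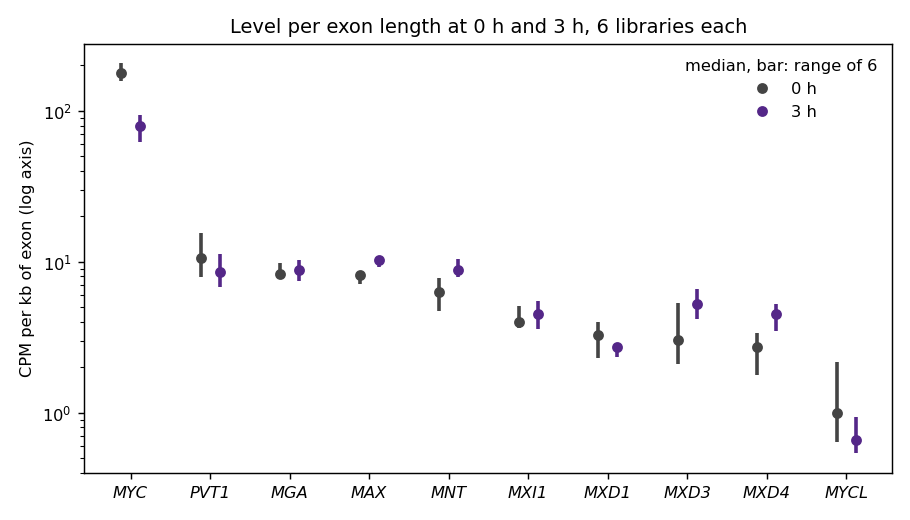
Level per exon length (CPM per kb, y axis, log scale) of the 10 genes (x axis, ordered by the 0 h median) at 0 h and 3 h; points are medians and bars the range over 6 libraries. MYC drops from 179 to 79.0 CPM per kb and stays above all others, and MYCL is lowest at both times.

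Whether the 3 h response differed between the receptor constructs was tested as the difference of the log2 changes. None of the 10 genes differed in its response between SoF and Ctrl, between SoF and wt, or between Ctrl and wt by edgeR's quasi-likelihood test, none had an unadjusted p under 0.05, and DESeq2 called none. Over all genes tested, the edgeR test called 0.0127% of genes for SoF against Ctrl and 0.00% for each of the other pairs. DESeq2 called 12, 0 and 1 genes, and 671, 558 and 845 genes had an unadjusted edgeR p under 0.05. For MYC the response of SoF differed from that of Ctrl by -0.23 (95% interval -0.74 to 0.27) and from that of wt by -0.22 (-0.72 to 0.28), and that of Ctrl from wt by 0.01 (-0.49 to 0.52). For MNT the 3 intervals lay between -0.57 and 0.63, and for PVT1 between -0.98 and 0.41. The largest difference among the 6 genes called at 3 h was that of MXD3, Ctrl against wt, at 0.64 (-0.09 to 1.37).

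At 3 h wt had 1 of 10 genes called (MYC, against 10.7% of all genes), SoF had 4 (MYC, PVT1, MNT and MXD4, against 19.3%) and Ctrl had 3 (MYC, MXD3 and MXD4, against 14.2%). At 2 h wt had 0 by the edgeR test (DESeq2 called 2, and 4 had an unadjusted p under 0.05, against 4.60% of all genes), SoF had 2 (MYC and MNT, against 5.68%) and Ctrl had 3 (MYC, MNT and MXD4, against 7.95%). At 1 h no gene of the network was called in any line, 2, 1 and 0 genes had an unadjusted p under 0.05 in wt, SoF and Ctrl, and DESeq2 called 0, against 0.156%, 0.165% and 0.0465% of all genes. The MNT change at 3 h was 0.50 for wt, 0.55 for SoF and 0.46 for Ctrl, of which only that in SoF was called (edgeR adjusted p = 0.0455), a call lost without SoF replicate 2 at 0 h (0.38) or either SoF library at 3 h. The 2 h MNT call was lost in SoF without replicate 2 at 0 h or replicate 1 at 2 h, and in Ctrl without replicate 2 at 0 h (0.75), and the 2 h MXD4 call in Ctrl without replicate 2 at 0 h or 2 h (0.49 to 1.12).

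The lines were also compared over all times, 8 libraries each, in a fit that ignored treatment time as the methods of the study do. MXD1 was higher in SoF than in wt, with a median of 20.7 CPM (17.5 to 24.2) against 15.5 CPM (12.7 to 19.4) and 18.2 CPM (15.8 to 25.4) in Ctrl. Its log2 difference between SoF and wt was 0.41 (SE 0.11, edgeR adjusted p = 0.0191), and it was called with any 1 library left out but not without the low-count filter. PVT1 was higher in SoF than in wt too, with a median of 274 CPM (211 to 401) against 195 CPM (173 to 272), a log2 difference of 0.53 (SE 0.15, edgeR adjusted p = 0.0292). That call was lost without any of the 4 wt libraries at 2 h and 3 h, either SoF library at 1 h or SoF replicate 2 at 0 h (7 of 16 libraries), with values from 0.46 to 0.61. In Ctrl PVT1 had a median of 293 CPM (203 to 389.9), 0.50 above wt (SE 0.15, edgeR adjusted p = 0.0553). MXI1 was higher in SoF than in Ctrl, with a median of 30.5 CPM (24.6 to 33.6) against 23.2 CPM (21.04 to 29.6), a log2 difference of 0.34 (SE 0.08, edgeR adjusted p = 0.0183). The calls of PVT1 and MXI1 were likewise lost without the low-count filter. In every one of these comparisons the libraries of the lines overlapped.

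For SoF against wt this made 2 of 10 genes against 8.02% of all genes called, for SoF against Ctrl 1 against 3.61%, and for Ctrl against wt 0 by the edgeR test (DESeq2 called 1, and 4 had an unadjusted p under 0.05) against 4.77%. MYC itself differed by -0.10 (SE 0.26) between SoF and wt and by 0.10 (SE 0.26) between Ctrl and wt. With an additive time term, which takes the time effect out of the spread, more was called: 5 genes for SoF against wt (29.0% of all genes), 4 for Ctrl against wt (18.8%) and 2 for SoF against Ctrl (13.3%). There PVT1 was above wt in SoF by 0.52 (SE 0.10, edgeR adjusted p = 0.000372) and in Ctrl by 0.50 (SE 0.10, edgeR adjusted p = 0.000635), MXD1 by 0.40 and 0.27, and MXD3 lay below wt in SoF (-0.37) and Ctrl (-0.53). MYCL (-0.74) and MXI1 (0.21) were also called in SoF and MGA (0.18) in Ctrl, while MXI1 (0.35) and MXD4 (0.33) were above Ctrl in SoF. MYC was not called in any of the 3 (SoF against Ctrl -0.22, SE 0.08, edgeR adjusted p = 0.0854). NR3C1 RNA also differed between wt and the mutant lines, and its part in these differences was not tested. Of 10 genes around MYC and PVT1 on chromosome 8q24, 7 were tested in the fit that ignored time and none was called there between the lines, with log2 differences from -0.24 to 0.39 over the 3 comparisons. That fit called 8.02%, 4.77% and 3.61% of all genes, so few calls among 7 genes would be looked for. These neighbours were not examined with the additive time term, so they cannot be set beside the PVT1 values from that fit.

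Of 4 relatives outside the 10 genes, 3 were tested and 2 rose at 3 h on the mean of the lines. MLX, the MAX-like factor, had 34.0 to 56.0 CPM at 0 h and 62.4 to 76.9 CPM at 3 h, and MLXIP, its glucose-sensing partner, had 40.0 to 55.7 CPM at 0 h and 86.6 to 129 CPM at 3 h. MLX shares 18.2% of its exon bases with PSMC3IP on the opposite strand, which averaged 448.3 counts. All 3 h libraries of both genes lay above all 0 h libraries, as did those of 9.89% of all genes. The log2 changes were 0.59 (SE 0.11, edgeR adjusted p = 0.000232) for MLX and 1.14 (SE 0.11, edgeR adjusted p = 4.13e-08) for MLXIP. MYCN had few counts (7 to 80 a library) and gave no call with time, but differed between lines over all times, with a median of 5.42 CPM in wt, 1.04 CPM in SoF and 2.08 CPM in Ctrl. Its log2 difference from wt was -1.95 (SE 0.26, edgeR adjusted p = 4.44e-05) in SoF and -1.10 (SE 0.25, edgeR adjusted p = 0.00952) in Ctrl. MLXIPL had at most 5 counts and was not tested.

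Genes that MYC is known to raise did not fall with it as a group. Of 24 such genes tested, 15 rose and 2 fell at 3 h, with a median log2 change of 0.32 beside -0.03 over all genes, and 20 rose and 1 fell at 2 h, with a median of 0.41 beside -0.03. These counts and those of the lists that follow stand against 20.9% of all genes called higher and 19.3% lower at 3 h, and 16.2% and 12.6% at 2 h. BOP1, for ribosome assembly, rose by 1.24 (SE 0.11), PPAT, for purine synthesis, by 0.78 (SE 0.10) and CAD, for pyrimidine synthesis, by 0.76 (SE 0.11). CCND2, a G1 cyclin (-0.43, SE 0.08), and ODC1, for polyamine synthesis (-0.42, SE 0.12), fell. Of 7 genes that MYC is known to lower, 3 rose (NDRG2, GADD45B and the cell-cycle inhibitor CDKN1B, with log2 changes from 0.43 to 0.72) and 2 fell (GADD45A at -0.76 and CDKN2B at -0.30). Of 14 cofactors and regulators of MYC, 5 rose and 1 fell, with a median of 0.14, so that the share called was near that of all genes. WDR5, which helps MYC onto chromatin, rose by 0.59 (SE 0.09) and the MXD corepressor SIN3B by 0.30 (SE 0.09), while the acetyltransferase KAT5 fell (-0.42, SE 0.09). On 8q24, 1 of 7 genes rose (ASAP1, 0.82) and 3 fell (TRIB1 at -0.61, LRATD2 at -0.68 and CASC11 at -1.29), the last of which overlaps MYC on the opposite strand.

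**Figure D5:**
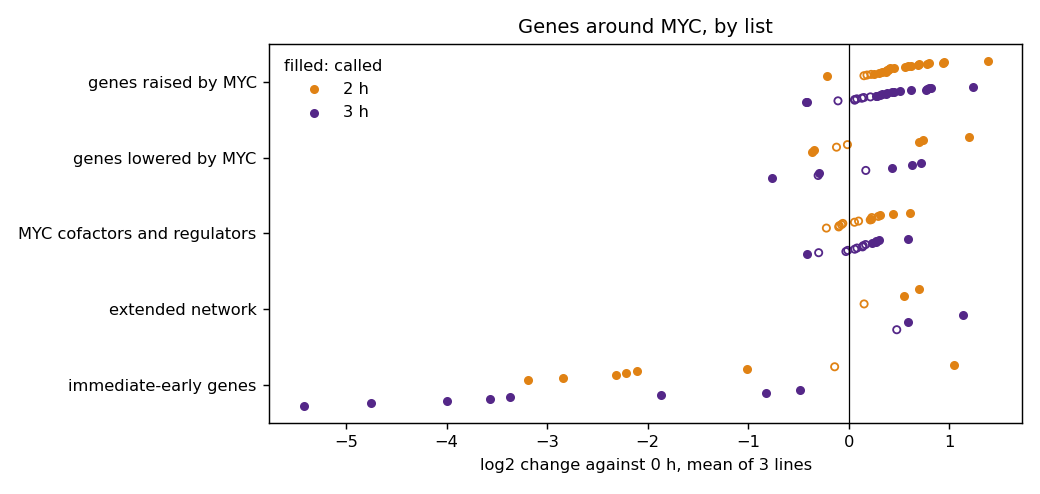
Log2 change (x axis) at 2 h and 3 h against 0 h, as the mean of the 3 lines, of the genes of 5 lists (rows); each point is a gene and filled points have an adjusted p under 0.05. Genes raised by MYC lie mostly right of 0, with a median of 0.32 at 3 h, and all 8 immediate-early genes lie left of 0 at 3 h.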

How the data were processed

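4sU-seq libraries from 3 U2OS lines at 4 times were analysed, 24 in all, in 12 groups given by the labels. The authors aligned reads to hg38 and deposited one table of whole-number counts per gene and library, read over the exons of GENCODE release 39 after removal of duplicate molecules; the submitters' processing notes name UMI-tools 1.1.2, Trim Galore 0.6.6, STAR 2.7.3a and featureCounts. Names and positions came from GENCODE release 44 (99.7% of identifiers matched). Counts were tested in edgeR 4.0.16 (R 4.3.3) with TMM factors, filterByExpr (minimum count 10, minimum total 15), the quasi-likelihood test and Benjamini-Hochberg adjustment over all genes tested, and an adjusted p under 0.05 made a call. A model with 12 groups (23651 genes) gave the time and response contrasts, and a model on construct (21122 genes) the line contrasts. SEs were derived from the log2 change and its F statistic. Alternatives were RLE factors, no filter, a replicate block, DESeq2 1.42.0, an additive time term, a minimum change and left-out libraries. The 2 libraries of a group differed by more than counting error (chi-square over its degrees of freedom 5.66 to 21.3), and precision is set by that spread. Scripts were tested on simulated data. The 10 genes, named in full by rule, and the other lists, of which at most 3 genes each way were named by p, were chosen with earlier results of these data known. The values of 1 listed gene are not reported here, but list counts include it. No library was left out, and no sequence is shown for MYC and PVT1.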

Additional observations from a re-analysis of the deposited data

How the results depend on the processing

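Counts of network genes called moved with some choices. On the mean of the lines at 1 h the count of 0 became 1 with RLE factors, 2 without the low-count filter, 1 with the replicate block, 1 in DESeq2 and 3 without the 0 h libraries of replicate 2, a choice made after seeing the data, which also took the 2 h count from 7 to 3. Without the filter the wt counts were 1, 3 and 2 at 1, 2 and 3 h in place of 0, 0 and 1, and both counts between SoF and the other lines over all times became 0. The wt 2 h count was 1 with the block and 2 in DESeq2, and DESeq2 gave 1 for Ctrl against wt over all times. With an additive time term, with or without a replicate block (the pair chosen after seeing the data), the line counts became 5, 4 and 2 in place of 2, 0 and 1. Asking also for a log2 change of at least 1 left 1 gene at 3 h on the mean of the lines, in SoF at 3 h, in Ctrl at 2 h and from 1 h to 2 h, and 0 in SoF at 2 h, on the mean of the lines at 2 h and from 2 h to 3 h, and in both SoF comparisons over all times.

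Leaving out 1 library at a time gave 0 to 1 calls on the mean of the lines at 1 h, 3 (without wt replicate 2 at 0 h) to 7 at 2 h, 5 to 7 at 3 h and 1 to 2 from 2 h to 3 h. Per line the ranges were 0 to 1 (wt 2 h), 1 to 2 (wt 3 h), 0 to 1 (SoF 2 h, 0 without SoF replicate 1 at 2 h), 1 to 5 (SoF 3 h), 1 to 4 (Ctrl 2 h) and 1 to 4 (Ctrl 3 h), and over all times 1 to 3 (SoF against wt) and 0 to 1 (Ctrl against wt). Where 1 library of a group remained, its spread was taken from the other groups.

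Reversed signs were of values near 0 that were not called. Without the 0 h libraries of replicate 1 the 1 h changes were 0.00485 for MYC, 0.0323 for MXD4 and -0.0113 for PVT1, and in DESeq2 the response of MYC in Ctrl against wt was -0.000108. With single libraries left out, the ranges crossing 0 were -0.10 to 0.0139 (MYC, 1 h), -0.31 to 0.00216 (MAX, 1 h), -0.58 to 0.00212 (PVT1, Ctrl 3 h), -0.10 to 0.10 (MXD1, 1 h to 2 h), -0.0387 to 0.0826 (MXI1, 1 h to 2 h), -0.0751 to 0.0186 (MAX, 2 h to 3 h), -0.13 to 0.0481 (PVT1, 2 h to 3 h) and -0.12 to 0.16 (the response of MYC in Ctrl against wt).

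Replicate numbers were not taken to pair the libraries, since not every pair of groups had a correlation over 0.1: over 66 pairs of groups the correlation of deviations ran from -0.221 to 0.568 and was over 0.1 in 21, highest among the 0 h groups (0.394 to 0.568). Among the single values recomputed with the block, which for wt cover 3 h only, the calls of MNT at 1 h on the mean of the lines and of MXD3 in SoF at 3 h changed. Of 79 values recomputed with each setting, 77 kept their direction and call with RLE factors, 77 with the block, 77 in DESeq2 and 71 without the filter. Depth limits MYCL most.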
